A study of Mus musculus with 30 samples.

Results

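The expression of genes in control brown preadipocytes after 4 hours of an adipogenic hormone mix was set against that of the same line on day 0, before the mix was added. The comparison takes in every gene whose RPKM (reads per kilobase of transcript, corrected for library size) reached 1 in either library, which was 12159 of the 23109 genes or unmatched accessions in the tables. The cells were brown preadipocytes of C57BL/6J mice, isolated from the interscapular brown fat of newborn GRf/f pups, whose glucocorticoid receptor gene Nr3c1 is flanked by loxP sites, and immortalised with SV40 T antigen. The 4 h group, RNA_Vec_4h, received dexamethasone at 2 µg/ml, IBMX at 0.5 mM, indomethacin at 0.125 mM, insulin at 0.02 µM and T3 at 1 nM when confluent, 4 days after plating. The day 0 group, RNA_Vec_D0, was confluent and uninduced. Both came from cells infected with the empty retrovirus (Vec), which keep the receptor gene, and each group is 1 library. Values of the line infected with Cre retrovirus, in which the receptor gene was deleted (RNA_Cre_4h and RNA_Cre_D0), are given beside them. The labels do not say whether the control line is 1 clone or a pool. No library of uninduced cells at 4 h was analysed here, so the mix and the 4 hours of elapsed time cannot be told apart. Whether the 4 h and day 0 libraries were sequenced in the same run is not known here. A difference between libraries or runs therefore cannot be told apart from either.

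Brown preadipocytes are mesenchymal cells that turn into heat-producing, lipid-storing adipocytes when several hormone pathways are switched on together. Dexamethasone activates the glucocorticoid receptor, a transcription factor that binds DNA directly. IBMX blocks phosphodiesterases and so raises cAMP, which activates CREB. Insulin and the thyroid hormone T3 act through their own receptors, and indomethacin inhibits cyclooxygenases and can bind PPARγ. In the first hours these signals are known to raise C/EBPβ and C/EBPδ, which later switch on Pparg and Cebpa and through them the adipocyte genes.

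With 1 library per time no test is possible, so no p-value is given and the change is described by size. A gene is said to have risen or fallen here when log2(RPKM + 1) differed by at least 1 between 4 h and day 0. The 4 h library held 12.3 M reads and the day 0 library 23.5 M, so for a transcript of median length (2522 nucleotides) the floor of 3 reads was an RPKM of 0.097 at 4 h and 0.0506 at day 0. Between 11471 and 12176 genes reached an RPKM of 1 in each of the 8 RNA libraries of the series. By this rule 671 genes rose, a background of 5.52% of the genes measured, and 977 fell, a background of 8.04%. Before induction, by comparison, the receptor-deleted and the control line differed by as much in 0.433% of 12007 genes. Those libraries were of similar depth, 24.1 M and 23.5 M reads. Their share is thus no measure of the spread between a 4 h and a day 0 library. On this scale the rises reached further than the falls. By at least 2, 149 genes rose and 51 fell, and by at least 3, 38 rose and 1 fell. The 1 added to each RPKM bounds the differences of genes of low level. Of the genes that fell, 208 ended under an RPKM of 1, and of those that rose, 121 began under it. With 0.1 added instead, Mrgprf stood at -4.38 and Lmod1 at -4.04, beside -3.49 and -2.91. Rgs2 then stood at 6.39, beside 5.99. Of the genes that rose, 648 had a 95% exact interval of the read ratio wholly above 1, and of those that fell, 918 had one wholly below 1, counting error only. The genes were chosen by these same counts, so the intervals give the calls no separate support. The median difference over all genes measured was -0.14, so the list medians below are to be read against that value. The counts of list members that rose or fell are likewise to be read against 5.52% and 8.04%. Scaling by the median of ratios in place of total reads moved the levels at 4 h up by 0.18 on the log2 scale and gave 889 higher and 663 lower, and TMM scaling moved them by 0.16 and gave 870 and 679. Which direction held more genes thus depended on the scaling. The median difference also moved with the level of the gene, at -0.27 for the genes of lowest level and -0.01 for those of highest level, when genes were cut into 5 equal bins, and its part in the counts was not tested.

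**Figure D1:**
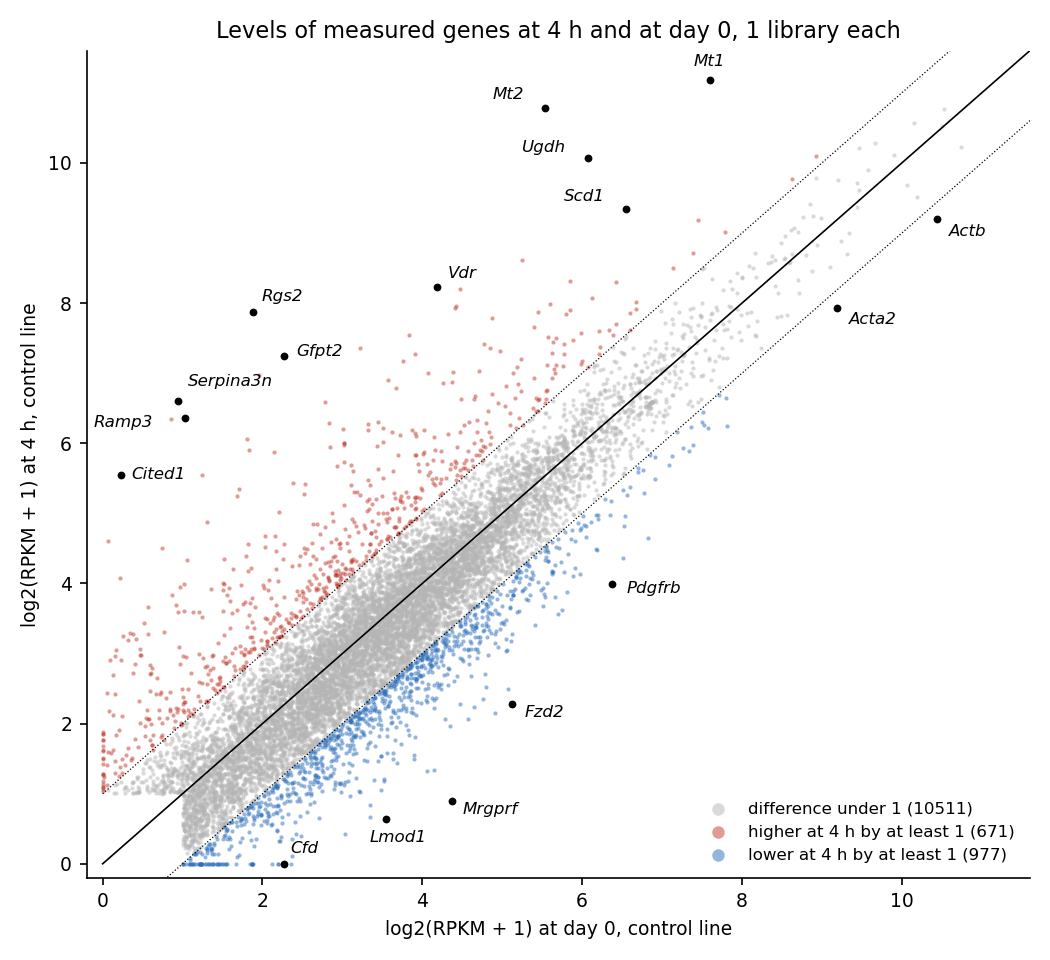
Each point is a gene measured in the control line, with log2(RPKM + 1) at 4 h on the vertical axis and at day 0 on the horizontal axis, 1 library each. The solid line marks equal levels and the dotted lines a difference of 1. The 671 genes above the upper dotted line spread further from the diagonal than the 977 below the lower one, with Rgs2 at a difference of 5.99 and Mrgprf at -3.49.

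Marks of mesenchymal precursors were present at both times, though not all of them. Of 15 listed precursor surface markers, 13 reached an RPKM of 1 in at least 1 of the libraries. Dpp4 (0.108 at 4 h and 0.0646 at day 0) did not. Nor did the brown lineage factor Prdm16 (0.275 at 4 h and 0.514 at day 0). Pdgfra, the receptor that marks adipocyte progenitors, stood at an RPKM of 29.9 at 4 h and 31.6 at day 0, Thy1 at 118 at 4 h and 134 at day 0, and the brown lineage factor Ebf2 at 18.2 at 4 h and 8.23 at day 0. Several markers of other cells were at or near 0. The macrophage genes Adgre1 and Ptprc, the muscle genes Myf5 and Pax7 and the epithelial gene Krt14 had 0 reads in both libraries. Pecam1 of endothelium had an RPKM of 0 at 4 h and 0.0786 at day 0. Of 9 macrophage markers found, 1 reached an RPKM of 1, as did 1 of 10 endothelial, 5 of 12 muscle, 3 of 10 epithelial and 3 of 10 Schwann and neural markers. Over each list the summed RPKM was 3.33 at 4 h and 3.03 at day 0 for macrophages, 2.37 and 2.25 for endothelium, 25.0 and 25.97 for muscle, 29.4 and 59.4 for epithelium, and 24.0 and 35.5 for Schwann and neural cells. Those above an RPKM of 1 included the paired-box gene Pax3 (14.1 at 4 h and 6.79 at day 0), skeletal actin, Acta1 (5.52 at 4 h and 13.5 at day 0), and the squamous gene Sprr1a (21.3 at 4 h and 46.2 at day 0), and their part in the results was not tested. Within the precursor list, Cd24a rose to 20.0 at 4 h, against 5.18 at day 0, and Nt5e, which encodes the ectonucleotidase CD73, rose to 5.58, against 0.297. Pdgfrb, the receptor for PDGF-BB, fell to 14.9 at 4 h, against 81.8 at day 0, a difference of -2.38. F3 fell to 70.2 at 4 h, against 144 at day 0. In all, 5 of the 13 measured members of that list rose and 2 fell, and 6 rose and 1 fell with median-of-ratios or TMM scaling. In bulk RNA, a change in the number of cells of a type and a change in RNA per cell cannot be told apart.

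Nr3c1 itself, which encodes the glucocorticoid receptor and is intact in these cells, stood at an RPKM of 12.9 at 4 h and 24.3 at day 0. Its difference of -0.87 missed the threshold, and its level at 4 h was 1.89-fold lower (95% exact interval 1.76 to 2.03). In the receptor-deleted line it stood at 4.04 at 4 h and 4.81 at day 0. The tables give 1 total per transcript, so the deleted exon itself is not seen. Fkbp5, the receptor-binding immunophilin, was the 1 of 17 measured steroid receptors and partners that rose, beside 5.52% of all genes measured.

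Genes known to be induced by the glucocorticoid receptor rose more often than those of any other list. The 33 lists were chosen with earlier results of these data known, so this ranking is a description only. Of 30 measured members 24 rose and 0 fell, with a median difference of 2.03. The metal-binding protein genes Mt1 and Mt2 gained more RPKM than any other nameable gene. Mt2 had an RPKM of 1768 at 4 h and 45.2 at day 0, a 39.1-fold higher level (95% exact interval 36.0 to 42.6), and Mt1 had 2316 at 4 h and 193 at day 0. The 2 are close paralogs, and no source used here says where reads that match both were counted, so their separate values are uncertain. The acute-phase protease inhibitor Serpina3n had 96.2 at 4 h and 0.919 at day 0, a difference of 5.66, and its paralog Serpina3m had 23.3 at 4 h and 0.0513 at day 0, under the same uncertainty. Feedback and effector genes of glucocorticoids rose by more than 3 on the log2 scale, among them Fkbp5 with 242 at 4 h and 20.2 at day 0, Tsc22d3 (GILZ, which dampens inflammatory signalling) with 153 at 4 h and 13.97 at day 0, the RAS-like G protein gene Rasd1 with 15.8 at 4 h and 0.159 at day 0, and glutamine synthetase, Glul, with 72.6 at 4 h and 7.04 at day 0. Zbtb16, a zinc finger factor nearly silent at day 0, had 409 reads at 4 h and 8 at day 0. The kinase gene Sgk1 had 56.1 at 4 h and 14.1 at day 0, Klf9 had 43.6 at 4 h and 9.01 at day 0 and Pdk4, a kinase that turns cells away from glucose oxidation, had 37.4 at 4 h and 8.32 at day 0. Anxa1, an anti-inflammatory phospholipid-binding protein often listed as a glucocorticoid target, was the 1 member with a difference below 0, at -0.51 and RPKM values of 176 at 4 h and 252 at day 0. Tat and Pck1, targets known from liver, and Hif3a stayed below an RPKM of 1 at both times.

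**Figure D2:**
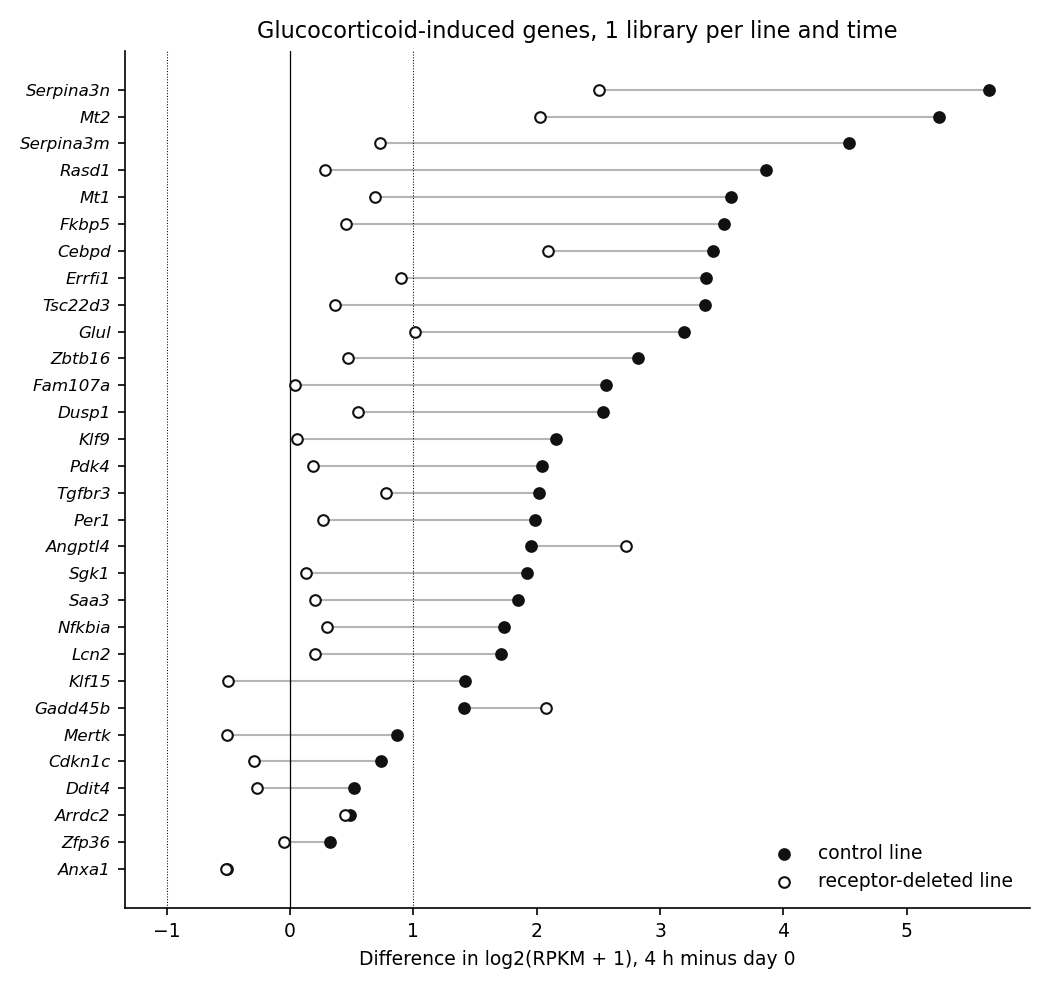
Difference in log2(RPKM + 1), 4 h minus day 0, for the 30 glucocorticoid-induced genes measured in the control line. Filled points are the control line and open points the receptor-deleted line, 1 library per line and time. Dotted lines mark differences of 1 and -1. The filled points of 24 genes lie beyond 1, and the open points of 6 do.

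Genes induced by cAMP and CREB also rose together: 18 of 24 measured members rose and 2 fell, with a median difference of 1.97. Rgs2, which shuts off G protein signalling, had the largest difference of all genes measured: its RPKM was 234 at 4 h and 2.69 at day 0, an 87.0-fold higher level (95% exact interval 75.4 to 101). Cited1, a co-activator that binds CBP and p300, had 548 reads at 4 h and 4 at day 0, a difference of 5.32. The orphan receptor genes of the NR4A family rose together, Nr4a1 to 95.4 against 5.86 at day 0, Nr4a3 to 8.18 against 0.248 and Nr4a2 to 11.9 against 3.49. Members of the list that can restrain cAMP signalling and rose were the cAMP-degrading enzymes Pde4d (50.6 at 4 h and 7.61 at day 0), Pde4b (67.5 at 4 h and 14.2 at day 0), Pde3b (38.6 at 4 h and 8.12 at day 0) and Pde10a (11.3 at 4 h and 2.19 at day 0), the CRTC-inhibiting kinase Sik1 (37.7 at 4 h and 4.76 at day 0) and Crem, which can encode the repressor ICER (12.1 at 4 h and 2.37 at day 0). The MAPK phosphatase gene Dusp1, which like Per1 is also on the glucocorticoid list, had 70.5 at 4 h and 11.3 at day 0. Pde4a went the other way, with 4.22 at 4 h and 12.7 at day 0, and so did the CREB co-activator Crtc1, with 3.72 at 4 h and 8.71 at day 0. Of all 15 measured genes in the phosphodiesterase family, counted by symbol after the values were seen, 6 rose, 1 fell and 8 did not pass, with a median of 0.16. With median-of-ratios or TMM scaling Crtc1 no longer passed, and 1 member of the list fell. The secreted peptides Sst and Areg had 15 and 21 reads at 4 h and 0 at day 0, so that Sst was at least 9.58-fold and Areg at least 13.4-fold higher on a floor of 3 reads per library.

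CREB binds the palindrome TGACGTCA, the cAMP response element, or its shorter core TGACG. RefSeq promoter windows of assembly GRCm38.p6, each 250 bases before and 50 after a gene start, were at hand for 9281 of the 12159 genes measured. The stretches below come from promoters of members of the cAMP list, with Dusp1 also on the glucocorticoid list. They show how these sites lie in the genes whose rise is described above. Each is 70 bases, on the strand of the gene, with the element or its core on either strand (TGACG or CGTCA) in capitals. They lie at chr5:91139508-91139577 on the plus strand for Areg, chr17:26508576-26508645 on the minus strand for Dusp1, chr16:23890853-23890922 on the minus strand for Sst, chr1:144004295-144004364 on the minus strand for Rgs2, chr15:101266596-101266665 on the plus strand for Nr4a1 and chrX:102250770-102250839 on the minus strand for Cited1.
Areg: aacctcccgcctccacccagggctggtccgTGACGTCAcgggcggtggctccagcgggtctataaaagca
Dusp1: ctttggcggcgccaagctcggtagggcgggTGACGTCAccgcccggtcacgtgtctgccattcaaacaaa
Sst: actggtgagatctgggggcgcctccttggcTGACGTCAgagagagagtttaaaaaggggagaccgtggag
Rgs2: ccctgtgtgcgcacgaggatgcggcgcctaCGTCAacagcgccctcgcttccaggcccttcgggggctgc
Nr4a1: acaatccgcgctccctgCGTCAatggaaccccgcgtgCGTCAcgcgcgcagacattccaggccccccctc
Cited1: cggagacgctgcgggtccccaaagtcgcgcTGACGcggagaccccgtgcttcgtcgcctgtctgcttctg
The whole palindrome was in the windows of Areg, Dusp1 and Sst, 61, 143 and 48 bases before the gene start. Those of Rgs2, Nr4a1 and Cited1 held the core alone. Over all genes measured, 3.06% of 11852 windows held the palindrome, against 3.84% of 599 windows of genes that rose and 1.40% of 1002 windows of genes that fell. The core was in 36.7% of windows of genes that rose, 22.8% of those of genes that fell and 31.6% of all windows, and in 15 of 27 windows of the cAMP list. The C/EBP core TTGCNNAA was in 11.2%, 6.99% and 8.01% of the same 3 sets, the AP-1 site TGANTCA in 6.84%, 7.49% and 4.98%, and AGAACA, found in glucocorticoid response elements, in 13.7%, 10.9% and 12%. Both strands were searched and the palindrome contains the core. These shares were not tested, and a match is a stretch of letters and not a bound site.

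Among the genes with the 15 largest positive differences, several belong to neither list. Prg4, which encodes the joint lubricant lubricin, had an RPKM of 80.3 at 4 h and 0.816 at day 0. Ramp3, a partner of receptors for adrenomedullin and calcitonin-family peptides, had 80.9 at 4 h and 1.05 at day 0, and Calca, which encodes calcitonin and CGRP, had 32 reads at 4 h and 0 at day 0. The fibrinogen-like immune regulator Fgl2 had 124 at 4 h and 2.87 at day 0 and Tcim, a regulator of Wnt signalling, had 45.8 at 4 h and 1.37 at day 0. The growth factor gene Fgf2 had 66.0 at 4 h and 2.51 at day 0. Its antisense neighbour Nudt6, named after its values were seen, had 57.6 at 4 h and 3.41 at day 0, and since a strand setting is not given, the reads of this pair cannot be told apart. Gclc, the catalytic subunit of the enzyme that starts glutathione synthesis, had 163 at 4 h and 8.36 at day 0. Gfpt2 and Ugdh, which make the sugar precursors of hyaluronan and other glycans, had 150.1 at 4 h and 3.81 at day 0 and 1072 at 4 h and 66.2 at day 0, and the gain in RPKM of Ugdh came next after those of Mt1 and Mt2. The metalloprotease gene Adamts9 had 58.9 at 4 h and 2.55 at day 0 and the vitamin D receptor gene Vdr 300.1 at 4 h and 17.2 at day 0. The 15 differences lay between 4.00 and 5.99.

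Immediate early factors were less uniform than the cAMP and glucocorticoid targets. Of 27 measured, 8 rose and 5 fell, with a median of 0.51. The 3 largest rises were those of Tiparp (60.9 at 4 h and 6.21 at day 0), an aryl hydrocarbon receptor repressor, the small MAF factor Maff (61.7 at 4 h and 7.14 at day 0) and Myc (71.8 at 4 h and 13.7 at day 0), and Csrnp1 (12.2 at 4 h and 2.59 at day 0) and Junb (56.7 at 4 h and 15.1 at day 0) rose less. Fos, with 3.94 at 4 h and 1.95 at day 0, and Egr1, with 42.5 at 4 h and 38.6 at day 0, missed the threshold. Klf6 (10.2 at 4 h and 32.1 at day 0), Srf (5.66 at 4 h and 15.8 at day 0), Klf2 (3.46 at 4 h and 9.96 at day 0), Jund (15.8 at 4 h and 39.5 at day 0) and Egr3 (0.173 at 4 h and 1.56 at day 0) fell. The other scalings gave 11 up and 5 down.

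The factors that start adipogenesis moved both ways. Of 28 measured, 12 rose and 4 fell, with a median of 0.19. Cebpb, the first C/EBP to act, had an RPKM of 219.9 at 4 h and 28.4 at day 0 and Cebpd had 144 at 4 h and 12.5 at day 0, differences of 2.91 and 3.43. Pparg, the master factor of adipocytes, rose, with 13.6 at 4 h and 4.68 at day 0, a 2.90-fold higher level (95% exact interval 2.42 to 3.48), and Cebpa, its partner, had 9.05 at 4 h and 5.50 at day 0 and missed the threshold at 0.63. Klf5, a C/EBP target upstream of Pparg, had 9.88 at 4 h and 2.66 at day 0 and Klf15 had 5.94 at 4 h and 1.60 at day 0. The lipogenic factor gene Srebf1 fell, with 9.49 at 4 h and 23.6 at day 0, as did Stat5b (2.68 at 4 h and 7.65 at day 0) and Zfp467 (0.248 at 4 h and 3.61 at day 0).

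Factors that hold precursors back also moved both ways, 4 of 27 up and 4 down. Those that rose were the HLH inhibitors Id1 (76.1 at 4 h and 9.02 at day 0) and Id3 (316 at 4 h and 56.6 at day 0), the mRNA-decay factor gene Zfp36l1 (146 at 4 h and 36.6 at day 0) and Dlk1 (136 at 4 h and 53.2 at day 0), the surface protein also called Pref-1. Klf3 (7.90 at 4 h and 29.1 at day 0), Klf2, Rb1 (2.24 at 4 h and 6.04 at day 0) and the Wnt ligand gene Wnt10b (0.220 at 4 h and 1.55 at day 0) fell, 3 in all with the other scalings.

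Genes of mature fat cells did not move as a group, with 3 of 16 measured members up and 4 down, and 11 more stayed below an RPKM of 1 at both times. The desaturase gene Scd1 had 646 at 4 h and 92.6 at day 0, and Dgat1, which joins the last fatty acid to triglyceride, had 73.3 at 4 h and 10.3 at day 0. The lipoprotein lipase gene Lpl had 52.96 at 4 h and 20.2 at day 0. Fabp4, a marker of differentiated fat cells, had 18.6 at 4 h and 14.5 at day 0, a difference of 0.34. Elovl6, a fatty acid elongase, fell, with 6.16 at 4 h and 18.1 at day 0, and Plin4 had 1.33 at 4 h and 6.07 at day 0. Cfd and Adipoq had 0 reads at 4 h and 83 and 77 at day 0, and were at least 14.4-fold and 13.4-fold lower at 4 h on a floor of 3 reads. On day 7 Cfd reached an RPKM of 2092 and Adipoq 1021, and their day 0 levels were 0.183% and 0.261% of those. Among the 10 genes with 0 reads at 4 h and an RPKM of at least 100 on day 7, the day 0 level was 0.154% to 0.822% of the day 7 level, with a median of 0.209%. Whether these day 0 reads were made by the day 0 cells was not tested. Of 7 measured brown fat genes, the lineage factors Lhx8 (6.27 at 4 h and 1.92 at day 0) and Ebf2 rose and 0 fell, and Ucp1, the uncoupling protein, stood at 0.0496 at 4 h and 0 at day 0.

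Among genes of secreted signals and their receptors, in the TGF-β and BMP list 10 of 27 measured members rose and 1 fell, with a median of 0.44. They were the targets Id1, Id2 and Id3, the inhibitors Smad6 (12.8 at 4 h and 5.60 at day 0), Smad7 (16.4 at 4 h and 5.27 at day 0), Bambi (7.88 at 4 h and 1.72 at day 0), Fst (38.5 at 4 h and 7.87 at day 0) and Chrdl1 (19.3 at 4 h and 3.76 at day 0), and the receptors Tgfbr1 (27.9 at 4 h and 9.87 at day 0) and Tgfbr3 (101 at 4 h and 24.2 at day 0). The BMP antagonist gene Grem1 fell, with 27.2 at 4 h and 90.6 at day 0. In the Wnt list the receptors Fzd1 (183 at 4 h and 46.7 at day 0) and Fzd4 (17.5 at 4 h and 3.50 at day 0) and the ligand Wnt11 (3.51 at 4 h and 0.0611 at day 0) rose, whereas the receptor Fzd2 fell, with 3.84 at 4 h and 33.7 at day 0, an 8.78-fold lower level (95% exact interval 7.52 to 10.3). These were 3 of 22 up and, with Wnt10b, 2 down, beside 5.52% and 8.04% of all genes measured.

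Of 23 measured feedback genes of MAPK and cytokine signalling 4 rose, Errfi1 (391.7 at 4 h and 36.9 at day 0), Dusp1, Socs2 (38.1 at 4 h and 11.51 at day 0) and Socs3 (22.6 at 4 h and 8.50 at day 0), and 2 fell, Spred3 (0.764 at 4 h and 3.48 at day 0) and Dusp8 (0.118 at 4 h and 1.32 at day 0). In the insulin and FoxO list 5 of 30 rose and 4 fell. Over all genes measured 5.52% rose and 8.04% fell, shares to set beside each list count of this paragraph. The 2 main insulin receptor substrates moved apart: Irs2 had 27.2 at 4 h and 7.998 at day 0 and Irs1 had 8.10 at 4 h and 20.0 at day 0. Igfbp3, which binds insulin-like growth factors, had 48.8 at 4 h and 9.89 at day 0, and the PI3-kinase inhibitor gene Pik3ip1 fell, with 2.55 at 4 h and 10.0 at day 0. Of prostaglandin and nucleotide receptor genes 1 of 13 rose, the prostaglandin transporter Slco2a1 (68.4 at 4 h and 12.2 at day 0), and 4 fell, among them the thromboxane receptor Tbxa2r (0.0850 at 4 h and 4.17 at day 0) and the prostacyclin receptor Ptgir (0.245 at 4 h and 2.30 at day 0).

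Clock genes split as well, 4 of 19 up and 4 down. Per1 had 25.2 at 4 h and 5.59 at day 0 and the repressor Nfil3 had 109 at 4 h and 11.8 at day 0, whereas the clock output factor Dbp had 1.90 at 4 h and 10.2 at day 0, Bhlhe40 had 8.07 at 4 h and 25.3 at day 0 and Nr1d1 had 6.02 at 4 h and 14.8 at day 0.

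Inflammatory genes rose more often than they fell, 8 of 24 against 2, beside 5.52% and 8.04% of all genes measured, with a median of 0.32. The chemokine gene Cxcl1 had 14.1 at 4 h and 1.57 at day 0, the cytokine gene Il6 6.15 at 4 h and 0.509 at day 0, Ccl5 24.6 at 4 h and 7.45 at day 0 and the IL-33 receptor gene Il1rl1 98.7 at 4 h and 34.7 at day 0. The NF-κB inhibitor Nfkbia, itself a glucocorticoid target, had 58.7 at 4 h and 16.9 at day 0. Irf1 (4.997 at 4 h and 17.2 at day 0) and Relb (2.26 at 4 h and 5.90 at day 0) fell, and under either other scaling Relb did not pass. Of 28 interferon-stimulated genes 2 rose, Bst2 (583 at 4 h and 173 at day 0) and Zbp1 (7.14 at 4 h and 2.59 at day 0), a share near the background of 5.52%, and 4 rose with the other scalings. B2m, the light chain of MHC class I, was among the 10 largest gains in RPKM, with 1092 at 4 h and 487 at day 0, as was the antiviral membrane protein gene Ifitm3, with 872 at 4 h and 394 at day 0.

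Matrix genes tended upwards, 8 of 32 rising and 1 falling, with a median of 0.43. The proteoglycan genes Dcn (153 at 4 h and 53.4 at day 0) and Vcan (417 at 4 h and 166 at day 0) and the basement membrane collagen genes Col4a1 (258 at 4 h and 101 at day 0) and Col4a2 (165 at 4 h and 73.4 at day 0) rose. The fibrillar collagen gene Col1a1 had 1481 at 4 h and 1449 at day 0, a difference of 0.03, and Col3a1 had 884 at 4 h and 486 at day 0, which missed the threshold at 0.86 but reached it under TMM or median-of-ratios scaling. The aggrecanase gene Adamts5 was the member that fell, with 16.5 at 4 h and 61.6 at day 0.

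**Figure D3:**
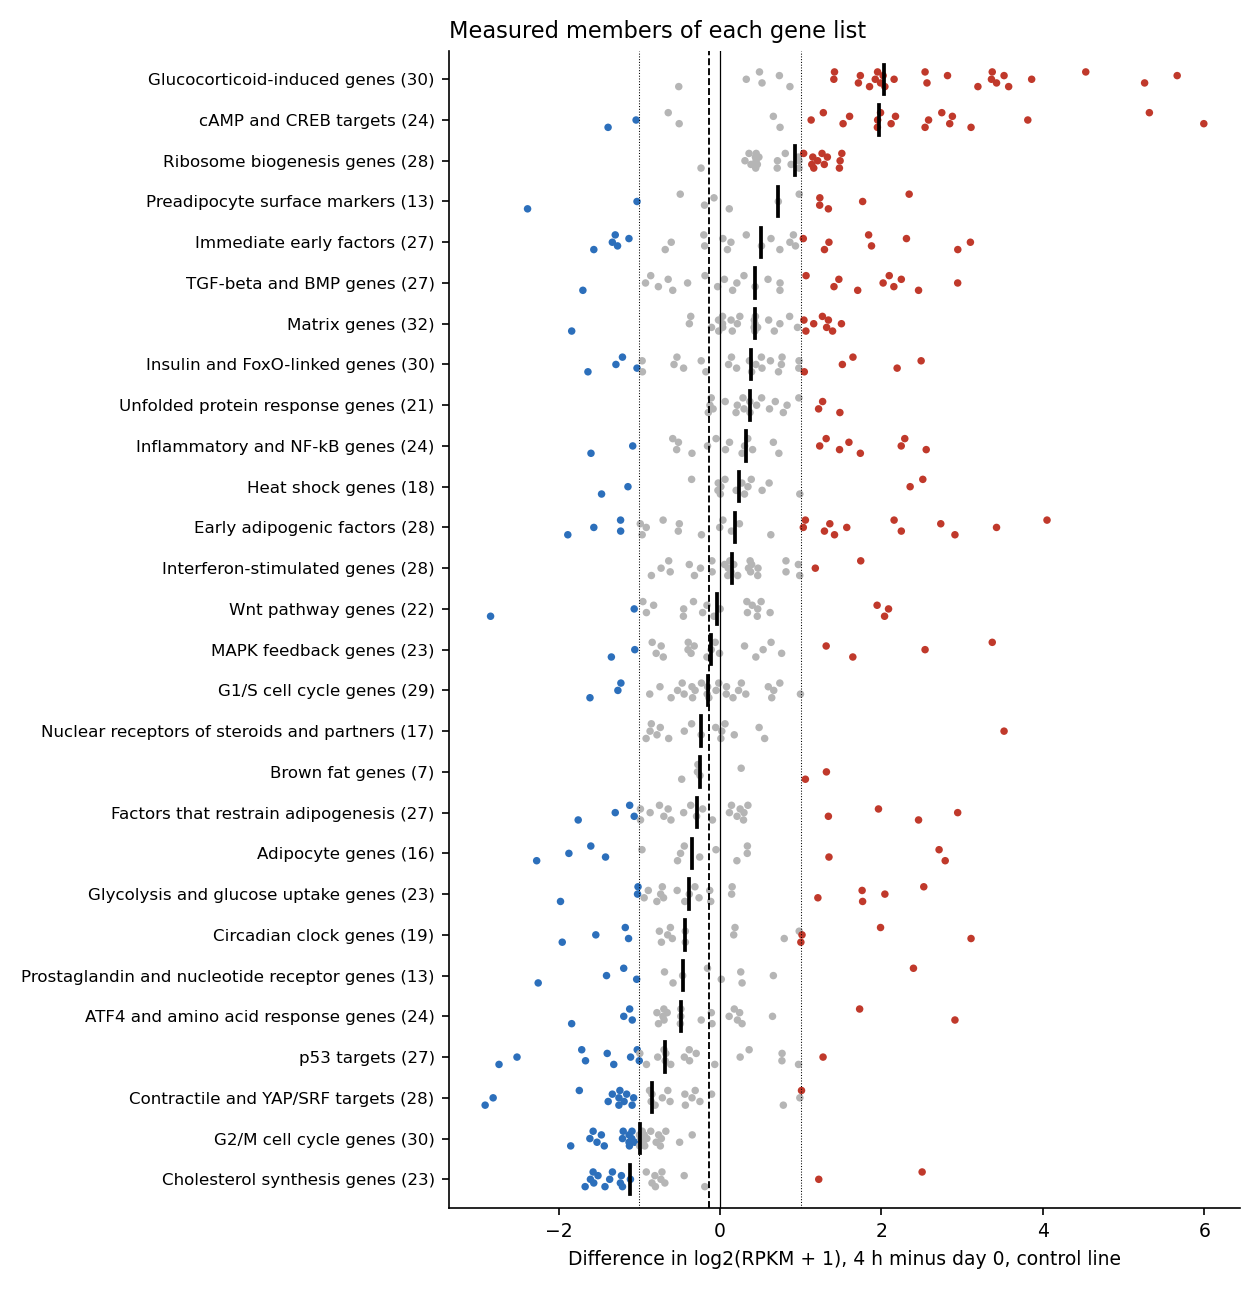
Each point is a measured member of a gene list in the control line, placed by its difference in log2(RPKM + 1), 4 h minus day 0, with the number of measured members in parentheses. Thick bars mark list medians, the dashed line the median of all genes measured (-0.14) and dotted lines differences of 1 and -1. The glucocorticoid and cAMP lists lie at the top with medians near 2, and the cholesterol, G2/M and contractile lists at the bottom.

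The contractile list moved down. Of 28 measured genes of actin filaments, SRF and YAP 12 fell and 1 rose, with a median of -0.85. Beta-actin, Actb, lost more RPKM than any other nameable gene, with 585 at 4 h and 1383 at day 0, and smooth muscle actin, Acta2, had 243 at 4 h and 581 at day 0. Lmod1, which nucleates actin filaments in smooth muscle, had 0.559 at 4 h and 10.7 at day 0, and the stretch-responsive gene Ankrd1 had 1.52 at 4 h and 16.7 at day 0. Calponin, Cnn1, had 6.69 at 4 h and 24.7 at day 0, the YAP target Ccn2 had 18.0 at 4 h and 39.5 at day 0 and Srf itself fell. Ccn1, also a YAP target, was the member that rose, with 134 at 4 h and 66.3 at day 0. With the other scalings 9 fell and 2 rose. Reads of Actb and other actins may be shared among paralogs and retrocopies.

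Sterol synthesis genes also fell together. Of 23 measured members 12 fell and 2 rose, with a median of -1.11. They were spread along the pathway: Mvd (9.67 at 4 h and 31.5 at day 0), Fdft1 (10.2 at 4 h and 27.2 at day 0), Sqle (30.3 at 4 h and 71.4 at day 0), Lss (9.49 at 4 h and 27.2 at day 0), Sc5d (14.03 at 4 h and 43.7 at day 0) and Dhcr7 (3.68 at 4 h and 12.8 at day 0), with the sterol sensor gene Insig1 (13.3 at 4 h and 39.9 at day 0). The mevalonate-pathway kinase gene Pmvk went against the rest of the list, with 116 at 4 h and 19.7 at day 0, and Hsd17b7 had 29.6 at 4 h and 12.1 at day 0. The other scalings gave 11 down and 2 up.

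All 30 measured mitotic genes had differences below 0, 14 of them past the threshold, and a median of -0.997. The largest falls were those of the cytokinesis genes Anln (8.68 at 4 h and 33.9 at day 0) and Ect2 (3.54 at 4 h and 12.9 at day 0), the kinesin Kif23 (5.48 at 4 h and 18.3 at day 0), the checkpoint kinase Bub1b (7.29 at 4 h and 22.8 at day 0) and the proliferation marker Mki67 (16.8 at 4 h and 48.4 at day 0). Cdk1 had 23.2 at 4 h and 29.8 at day 0, a difference of -0.34. With the other scalings 8 passed and all 30 differences stayed below 0. Genes of G1 and S phase were near the background of all genes, with 0 of 29 up and 3 down, and the 3 were the cyclins Ccnd1 (11.1 at 4 h and 36.0 at day 0) and Ccnd2 (40.5 at 4 h and 96.2 at day 0) and the thymidine kinase Tk1 (9.23 at 4 h and 23.6 at day 0). The replication clamp Pcna had 104 at 4 h and 66.3 at day 0 and the licensing factor Mcm2 51.1 at 4 h and 63.6 at day 0.

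Of 27 measured p53 targets 9 fell and 1 rose, with a median of -0.68. SV40 T antigen, present in these cells, binds p53. The stress cytokine gene Gdf15 had 1.505 at 4 h and 15.7 at day 0, the pro-apoptotic gene Bbc3 (PUMA) 0.784 at 4 h and 9.20 at day 0, the death receptor gene Fas 1.65 at 4 h and 7.68 at day 0 and Ccng1 50.8 at 4 h and 135 at day 0. Cdkn1a, which encodes the cell cycle inhibitor p21, had 111 at 4 h and 209 at day 0 and missed the threshold at -0.91. Pmaip1 (NOXA) was the member that rose, with 8.88 at 4 h and 3.08 at day 0. With the other scalings 6 were lower and 2 higher by this measure.

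Ribosome biogenesis genes shifted upwards by a small amount. Of 28 members 27 had differences above 0, 11 rose and 0 fell, with a median of 0.93 and none above 1.51. The nucleolar proteins Nolc1 (60.6 at 4 h and 20.6 at day 0), Nop2 (39.2 at 4 h and 15.0 at day 0) and Nop56 (44.1 at 4 h and 17.8 at day 0) were among them, and 15 rose under either other scaling. Of 21 genes of the unfolded protein response 3 rose and 0 fell. These were the endoplasmic reticulum chaperone genes Dnajb9 (19.9 at 4 h and 6.48 at day 0) and Hspa5, which encodes BiP (514 at 4 h and 219.9 at day 0), and the sensor gene Ern1 (16.1 at 4 h and 6.07 at day 0), and 4 rose with TMM and 5 with median-of-ratios scaling. Of 18 heat shock and co-chaperone genes Hsph1 (163 at 4 h and 27.7 at day 0) and Bag3 (159 at 4 h and 30.3 at day 0) rose, and Hspa1a (0.758 at 4 h and 2.87 at day 0) and Hspa1b (2.67 at 4 h and 9.15 at day 0), near-identical copies whose reads may be shared, fell. Of 24 measured ATF4 and amino acid response genes 2 rose, Cebpb and the lipoprotein receptor gene Vldlr (23.1 at 4 h and 6.25 at day 0), and 4 fell, among them Trib3 (6.88 at 4 h and 27.2 at day 0) and Atf5 (78.2 at 4 h and 180.0 at day 0), and 2 fell with the other scalings. In the glucose list 5 of 23 rose, among them the lactate transporter Slc16a1 (61.1 at 4 h and 9.80 at day 0) and hexokinase Hk2 (21.7 at 4 h and 5.68 at day 0), and 3 fell, Eno2 (1.77 at 4 h and 9.88 at day 0), Hk1 (18.7 at 4 h and 38.8 at day 0) and Pfkm (9.15 at 4 h and 19.6 at day 0), of which Eno2 alone passed with the other scalings.

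The single largest fall was that of Mrgprf, an orphan G protein-coupled receptor gene, with an RPKM of 0.854 at 4 h and 19.8 at day 0, a 23.2-fold lower level (95% exact interval 15.1 to 37.6). The retinoic acid receptor gene Rarg had 3.44 at 4 h and 29.1 at day 0, the GLI-similar factor gene Glis2 4.12 at 4 h and 26.2 at day 0 and the transcriptional cofactor gene Lbh 4.65 at 4 h and 32.7 at day 0. Of the 15 largest falls 3 were genes of small G proteins or their regulators and effectors, Rab7b (0.582 at 4 h and 9.16 at day 0), Rab3il1 (3.20 at 4 h and 22.8 at day 0) and Cdc42ep3 (1.08 at 4 h and 10.2 at day 0). They were grouped after the values were seen, and such genes were not counted over all genes measured. The serpin gene Serpinb8 had 0.345 at 4 h and 7.20 at day 0, the phosphoinositide-binding adaptor gene Plekha2 3.70 at 4 h and 24.1 at day 0 and the scaffold gene Slc9a3r2 1.81 at 4 h and 13.8 at day 0. By RPKM lost, Actb was followed by Lgals1 (1192 at 4 h and 1709 at day 0), Vim (727 at 4 h and 1166 at day 0) and Acta2. S100a6, S100a4, Pfn1, Malat1 and Ptms lost between 138 and 241 RPKM with differences smaller in size than 1, and Cavin1, a coat protein of caveolae, fell to 75.0 at 4 h, against 224 at day 0.

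In the receptor-deleted line, whose pair of libraries is separate from the control pair, 447 of 12176 genes rose (3.67%) and 449 fell (3.69%). Its 4 h library was the shallowest, at 7.7 M reads. Of the 671 genes that rose in control cells 257 also rose there, 38.3% of the control set and 57.5% of the receptor-deleted set. Of the 977 that fell in control cells 323 also fell there, 33.1% and 71.9% of the sets. Whatever the size in receptor-deleted cells, 89.6% of the control set that rose and 96.0% of the set that fell had a difference of the same sign there. The share of same signs over all genes measured was not counted, so these shares have no baseline here. The median over all genes measured was below 0 in both lines, at -0.14 in control and -0.03 in receptor-deleted cells. The median difference of the genes that rose was 1.40 in control cells and 0.84 in receptor-deleted cells, and that of the genes that fell was -1.25 and -0.86. The control values chose these genes, so the medians do not compare the lines, and with 1 library per group a difference in response was not tested.

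For the gene lists the counts in the lines stood as follows, over members with an RPKM of at least 1 in either control library. Some members, such as Serpina3m (RPKM 23.3 at 4 h and 0.0513 at day 0 in control cells), met this through the control 4 h library alone. The counts and medians of the lines are thus not on an equal footing, and their difference was not tested. Of the 30 glucocorticoid-induced genes 24 rose in control cells and 6 in receptor-deleted cells, with medians of 2.03 and 0.34. Rasd1 differed by 3.86 in control and 0.28 in receptor-deleted cells, Fkbp5 by 3.52 and 0.45, and Klf15 by 1.42 and -0.50. The 6 that rose in receptor-deleted cells included Serpina3n (5.66 in control and 2.51 there), Mt2 (5.26 and 2.03) and Cebpd (3.43 and 2.09). The others were Glul (3.19 and 1.01), Gadd45b (1.41 and 2.08) and Angptl4. Angptl4, an inhibitor of lipoprotein lipase, had the larger difference without the receptor, 1.95 in control and 2.72 in receptor-deleted cells. Of the 24 cAMP targets 18 rose in control and 17 in receptor-deleted cells, with medians of 1.97 and 1.66. The members that rose were not all the same. Dusp1 (2.54 in control and 0.55 in receptor-deleted cells), Per1 (1.99 and 0.27) and Sst (1.61 and 0.72) passed in control cells alone. Ptgs2 and Inhba (0.74 and 2.04) passed in receptor-deleted cells alone. Outside that list, Fgf2 differed by 4.25 and 3.93, Vdr by 4.05 and 3.20, and Id1 by 2.94 and 2.66. Inflammatory genes rose in 8 of 24 cases in control and 12 in receptor-deleted cells, with medians of 0.32 and 1.00. Ptgs2, the inducible cyclooxygenase gene, differed by 0.66 and 2.38, and the chemokine gene Ccl2 by -0.59 and 1.04. Cholesterol synthesis genes fell in 12 and 8 of 23 cases, mitotic genes in 14 and 8 of 30, and contractile genes in 12 and 7 of 28. Pmvk, which rose in control cells, differed by -0.38 in receptor-deleted cells.

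**Figure D4:**
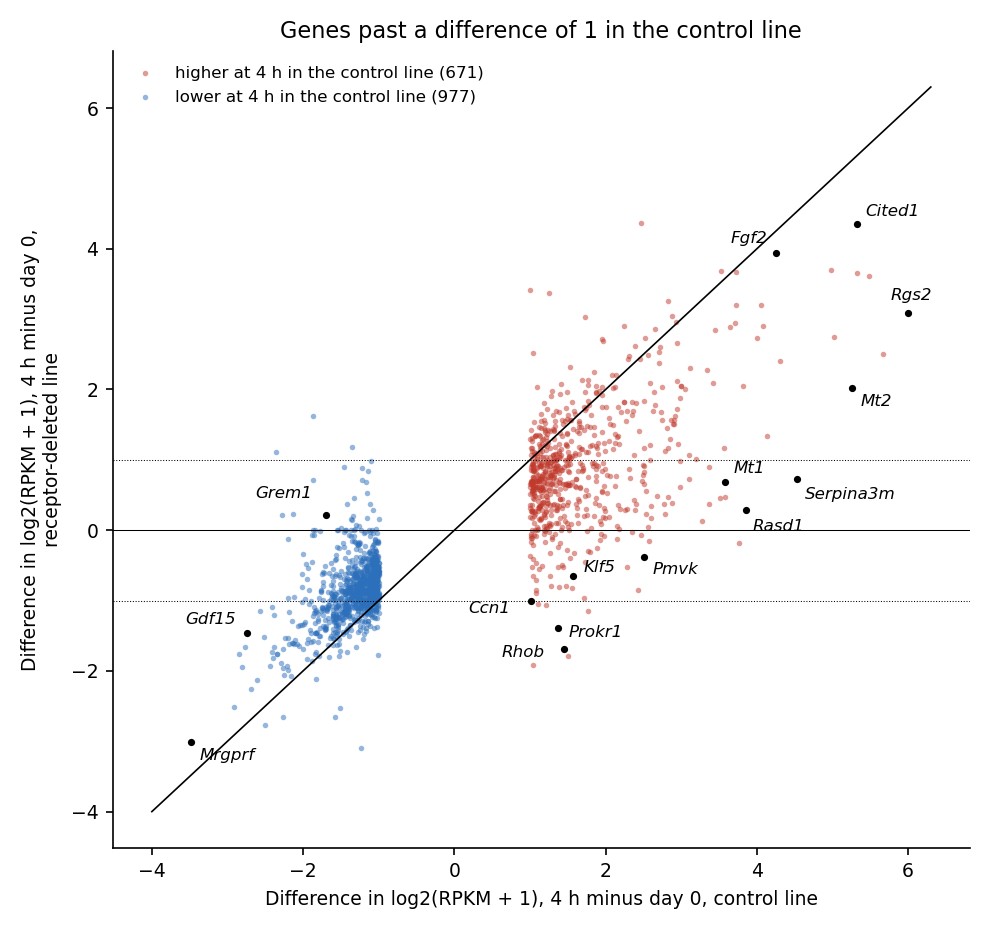
Each point is a gene that rose (671) or fell (977) in the control line, placed by its difference in log2(RPKM + 1), 4 h minus day 0, in the control line (horizontal) and in the receptor-deleted line (vertical), 1 library per line and time. The diagonal marks equal differences and dotted lines 1 and -1. Of the 1648 points, 1375 lie between the horizontal zero line and the diagonal, with Serpina3m, Rasd1 and Mt1 far below the diagonal and Fgf2 near it.

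Levels on days 2 and 7 in the control line, given only as values because comparisons with them would share libraries, set the 4 h levels in time. On day 0, at 4 h, on day 2 and on day 7, Cited1 had RPKM values of 0.175, 45.9, 4.48 and 0.338, and Vdr had 17.2, 300.1, 17.5 and 9.16. Fgf2 had 2.51, 66.0, 1.20 and 6.16 and Fgl2 2.87, 124, 0.386 and 1.94. For these 4 genes the 4 h value was the highest of the 4 times. Rgs2 had 2.69, 234, 124 and 46.2, and Mt2 45.2, 1768, 186 and 34.6. Cebpb had 28.4, 219.9, 115 and 55.7 and Cebpd 12.5, 144, 41.7 and 11.9. For Pparg the values were 4.68, 13.6, 43.9 and 102 and for Cebpa 5.50, 9.05, 207 and 214, so both were higher on days 2 and 7 than at 4 h. Zbtb16 was highest on day 2, at 33.8. Among the genes that fell, Acta2 had 581, 243, 19.2 and 323 and Ankrd1 16.7, 1.52, 0.569 and 11.4, with day 7 levels of both above those at 4 h. Mki67 had 48.4, 16.8, 29.4 and 31.2, and Insig1 39.9, 13.3, 22.1 and 60.2.

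**Figure D5:**
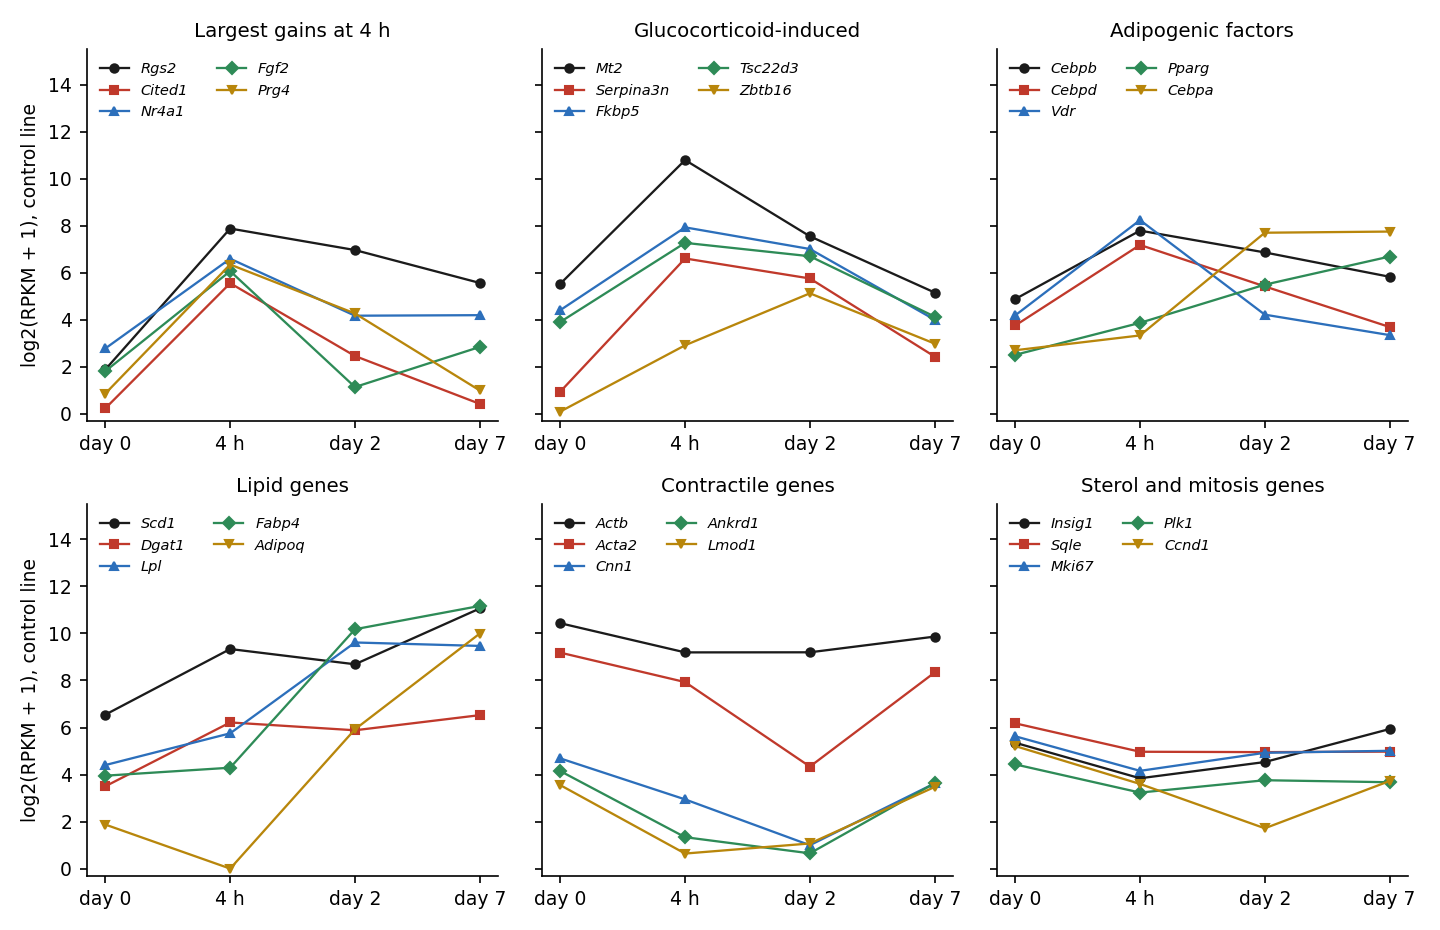
log2(RPKM + 1) in the control line on day 0, at 4 h, on day 2 and on day 7, 1 library per time, for 5 genes in each of 6 groups. Cited1, Nr4a1, Fgf2, Prg4, Vdr, Cebpb and Cebpd peak at 4 h, Pparg, Cebpa, Lpl and Fabp4 are higher on days 2 and 7, and the contractile genes are lower at 4 h than on day 0 and above their 4 h level on day 7.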

How the data were processed

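Each RNA library has 1 table, in which the authors give, per the file headers, reads counted per RefSeq accession and the RPKM computed from that count. The submitters' processing notes list mm9, SICER and CASAVA 1.8.2 without their roles. No aligner, counter or strand setting is stated there. Read totals were recovered from count and RPKM. Of 29082 accessions 28436 (97.8%) matched a symbol in a RefSeq table of GRCm38.p6, used for names and promoter sequences only, and a gene with several was represented by the one with the highest read sum over the 8 libraries. The deposited RPKM values gave the differences in log2(RPKM + 1), and the deposited read counts the 95% exact conditional binomial (Clopper-Pearson) intervals and the floor of 3 reads per library, which cover counting error only (Python 3.11.15, scipy 1.17.1). TMM factors came from edgeR 4.0.16. The difference and interval were tested on simulated counts with counting error alone and with changes larger than the threshold. Genes of low level and variation between libraries were not part of that check. Members and the 33 gene lists were chosen with earlier results of these data known. Genes were named as list members, as the 15 largest rises and falls, as the 10 largest gains and losses of RPKM, and as genes with 0 reads in 1 library, leaving out uncharacterised loci and small RNAs. Alternatives were other pseudocounts, filters, scalings and choices of accession. The 22 ChIP samples and the list genes Col12a1, Pycr1, Hmgcs1 and Cd68 were not analysed here, and a few items are not reported here.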

Additional observations from a re-analysis of the deposited data

Results flagged for a closer look

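Besides 8 loci left out of naming, with at most 8 reads in a control library, 3 genes passed a difference of 1 in opposite directions in the control and the receptor-deleted line. The difference between the lines was not tested, since each line has 1 library per time. Rhob, a small GTPase gene, had an RPKM of 138 at 4 h and 49.9 at day 0 in control cells, and 15.2 and 51.3 in receptor-deleted cells, responses that lay 3.14 apart on the log2(RPKM + 1) scale. The prokineticin receptor gene Prokr1 had 8.45 and 2.64 in control cells and 0.608 and 3.23 in receptor-deleted cells, 2.77 apart. Ccn1, a matrix protein gene that YAP activates, had 134 and 66.3 in control cells and 32.2 and 65.5 in receptor-deleted cells, 2.01 apart. The day 0 levels of all 3 were close in the lines, and the 4 h levels were not.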

How the results depend on the processing

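No paired analysis was possible because each group is 1 library. Under 7 other settings the number of genes that rose ran from 349 to 889, beside 671, and the number that fell from 254 to 1600, beside 977. With a pseudocount of 0.1, 1600 fell. A pseudocount of 5 left 349 that rose and 254 that fell, 47 distinct list members that fell, beside 96, and 135 and 79 genes that rose and fell in both lines, beside 257 and 323. A filter at an RPKM of 5, no filter or another choice of accession moved none of the counts of all genes or of list members by over 1.5 times. The counts shared by both lines were also run with the filter at 5 and with median-of-ratios scaling, and moved by less than that. Of the 48 genes named for size, Col3a1 passed in addition under TMM and median-of-ratios scaling, and none of them changed sign in any setting. TMM and median-of-ratios scaling moved 26 and 27 of the 28 list medians by at least 0.1, all upwards, and turned 4 small negative ones (brown fat, G1/S, MAPK feedback, Wnt) positive. A filter at an RPKM of 5 turned those of brown fat and prostaglandin receptor genes positive. The depth of 12.3 M reads at 4 h leaves genes near an RPKM of 0.1 at the floor.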

Other observations

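The following groups were put together after the values were seen, so their counts are a description of what was noticed. Of 9 measured genes for the synthesis of hyaluronan, a matrix polysaccharide, and of its sugar precursors 5 rose and 0 fell, also with the other scalings. Gfpt2, which makes the first amino sugar, had an RPKM of 150.1 at 4 h and 3.81 at day 0, Uap1, which activates it to a UDP sugar, 294 at 4 h and 21.2 at day 0, Ugdh, which makes UDP-glucuronic acid, 1072 at 4 h and 66.2 at day 0, and the synthases Has1 39.7 at 4 h and 2.26 at day 0 and Has2 17.0 at 4 h and 7.75 at day 0. The other 4, Gnpnat1 (3.89 at 4 h and 2.94 at day 0), Pgm3 (10.7 at 4 h and 6.45 at day 0), Gfpt1 (29.998 at 4 h and 32.2 at day 0) and Ugp2 (16.7 at 4 h and 21.9 at day 0), did not pass. Tnfaip6, which links proteins to hyaluronan, had 21.1 at 4 h and 3.48 at day 0, and Cemip, which degrades it, 2.01 at 4 h and 7.29 at day 0. In receptor-deleted cells 5 of the 9 rose too, with Has2 at a difference of 2.52 there and 1.04 in control cells.

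Homeobox genes of the HoxB and HoxC clusters, which mark position along the body axis, were lower at 4 h in the control line. Of 8 measured Hoxb genes 5 fell and 0 rose, with a median of -1.20, and of 8 Hoxc genes 5 fell and 0 rose, with a median of -1.14. With median-of-ratios scaling 4 of each fell, and 4 and 5 with TMM. Hoxb9 had 16.9 at 4 h and 48.5 at day 0, Hoxb8 7.80 at 4 h and 20.3 at day 0 and Hoxc6 19.9 at 4 h and 45.7 at day 0. In receptor-deleted cells 0 of either cluster fell, with medians of -0.03 and -0.04, and Hoxb9 had 37.7 at 4 h and 42.8 at day 0. Of 6 measured Hoxa genes 0 fell. Genes of a cluster lie side by side and overlap, so they are not independent of each other.

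In the glutathione group Gclc stood apart, with 163 at 4 h and 8.36 at day 0, while its partner subunit Gclm had 12.9 at 4 h and 19.5 at day 0 and glutathione reductase, Gsr, 5.95 at 4 h and 15.4 at day 0. Of 14 measured genes of that group 3 rose and 1 fell. Of 8 measured classical and related MHC class I heavy chain genes 4 rose and 0 fell, and their reads may be shared among close paralogs. Of 20 measured genes with 0 reads at day 0, Dmrta1, a doublesex-related transcription factor gene, had 84 reads at 4 h and was at least 53.7-fold higher on the floor of 3 reads. In receptor-deleted cells its RPKM was 0.0637 at 4 h and 0.0306 at day 0.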
